A study of Homo sapiens with 12 samples.

Results

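Mitochondria make few of their own proteins and import the rest from the cytosol, where ribosomes translate them from nuclear genes. The TOM complex of the outer membrane takes in nearly all of these precursors, and the TIM23 and TIM22 complexes pass them into the matrix or the inner membrane. Small TIM chaperones escort hydrophobic precursors across the space between the membranes, CHCHD4 (MIA40) traps cysteine-rich proteins there by oxidation, and MICOS shapes the inner membrane folds (cristae) at their necks. The genes described here are the nuclear genes of this machinery, chosen by name: symbols that start with TIMM or TOMM, CHCHD or MICOS followed by a number, and IMMT, APOO and APOOL. The rule found 40 genes, each with 1 RefSeq transcript accession, among 19305 accessions. They comprise 10 TOM genes, 7 TIM23 genes, 2 TIM22 genes, 6 small TIMs, CHCHD4, 5 other CHCHD genes, 7 MICOS genes, TIMMDC1 and the read-through transcript MICOS10-NBL1. TIMMDC1 shares the prefix but is an assembly factor of respiratory complex I.

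Ribosome profiling counts mRNA fragments that ribosomes cover (footprints), so a gene's share of footprints follows both its mRNA and how often that mRNA is translated. All 8 HEK293T libraries (human embryonic kidney cell line) came from cells given sodium arsenite, an oxidative stressor, after eIF2A siRNA or control siRNA, with immunoprecipitation (IP) of CBP80 or of eIF4E, the nuclear and cytoplasmic cap-binding proteins. The 4 H9 libraries (human embryonic stem cell line) carried eIF2A shRNA or control shRNA, with no IP and no arsenite named in the labels. Every group had 1 library of set 1 and 1 of set 2, and nothing says whether a set is a separate culture, so p-values measure only the spread between these libraries. In such bulk samples, fewer cells of a type and less RNA per cell cannot be told apart.

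Coding reads numbered 4331459 to 5775177 per HEK293T library and 937990 to 1878700 per H9 library. CPM here means footprints of a gene per 1000000 coding reads. The CBP80 and eIF4E libraries of the same siRNA and set differed by about sampling noise (chi-square per degree of freedom 1.01 to 1.03 over genes), so each such pair was summed and counted as 1 sample, leaving 2 eIF2A siRNA and 2 control siRNA samples of 9500566 to 11375636 reads. The H9 libraries of the same set were nearly as close across the shRNA labels (1.04 in set 1 and 1.07 in set 2), while libraries of the same shRNA label differed more between sets (2.75 for eIF2A shRNA and 3.13 for control shRNA). Pluripotency markers (8 genes, POU5F1 listed at 0 in every library) summed to 4539 to 4816 CPM in H9 and 58.4 to 69.8 CPM in HEK293T, while early differentiation markers (8 genes) summed to 0 to 1.32 CPM in H9, where 6 were at 0, and to 65.8 to 79.7 CPM in HEK293T. Fibroblast markers (7 genes) summed to 531 to 820 CPM in H9 and 20.9 to 26.9 CPM in HEK293T. TAGLN, COL1A2 and COL1A1 made up most of the H9 sum, while DCN and LUM were at 0 in H9 and COL3A1 was at or under 1.60 CPM there.

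EIF2A (NM_032025), the gene the siRNA and shRNA were aimed at, did not follow its label everywhere. It had 96.0 CPM in set 1 and 46.7 CPM in set 2 of the HEK293T libraries labelled eIF2A siRNA, against 83.2 and 83.5 CPM in those labelled control siRNA. The ratio was 1.15 in set 1 (95% counting interval 1.05 to 1.26) and 0.559 in set 2 (0.5 to 0.626), so EIF2A footprints were lower with its siRNA in set 2 alone. In H9 they were 110.2 and 68.2 CPM with the label eIF2A shRNA and 103.4 and 60.9 CPM with the label control shRNA, so the libraries separated by set rather than by shRNA label. Whether the H9 shRNA labels are crossed with the sets cannot be told here. Directions below are therefore directions between libraries as labelled.

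The promoters of 4 members are shown because the results turn on 3 of them and the other holds both motifs that occurred often among the members. NRF1 and GABPA (NRF-2) are transcription factors known to bind many nuclear genes for mitochondrial proteins. Each line gives the 250 bases before the RefSeq start on the gene's own strand, 5′ to 3′, of GRCh38.p14, with capitals for a match on either strand to the NRF1 motif (GCGC, any base, then TGCGC) or the GABPA motif (CCGGAAGT).
MICOS13, chr19:5680517-5680766, minus strand: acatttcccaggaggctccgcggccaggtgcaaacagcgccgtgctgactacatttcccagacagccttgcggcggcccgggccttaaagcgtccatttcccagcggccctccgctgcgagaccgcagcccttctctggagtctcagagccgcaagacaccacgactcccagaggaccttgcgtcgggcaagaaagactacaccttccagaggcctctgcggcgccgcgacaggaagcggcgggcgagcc
CHCHD10, chr22:23767973-23768222, minus strand: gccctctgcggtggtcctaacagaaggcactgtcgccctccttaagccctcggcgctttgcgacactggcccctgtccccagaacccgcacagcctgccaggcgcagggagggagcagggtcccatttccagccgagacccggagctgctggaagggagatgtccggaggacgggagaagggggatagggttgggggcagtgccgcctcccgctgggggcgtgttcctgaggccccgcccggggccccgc
CHCHD2, chr7:56106477-56106726, minus strand: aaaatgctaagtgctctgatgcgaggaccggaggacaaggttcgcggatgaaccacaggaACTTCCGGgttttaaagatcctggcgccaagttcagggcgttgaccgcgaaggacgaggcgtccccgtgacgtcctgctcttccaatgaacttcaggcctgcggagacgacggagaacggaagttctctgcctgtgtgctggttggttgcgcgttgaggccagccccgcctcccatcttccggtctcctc
TOMM20, chr1:235128838-235129087, minus strand: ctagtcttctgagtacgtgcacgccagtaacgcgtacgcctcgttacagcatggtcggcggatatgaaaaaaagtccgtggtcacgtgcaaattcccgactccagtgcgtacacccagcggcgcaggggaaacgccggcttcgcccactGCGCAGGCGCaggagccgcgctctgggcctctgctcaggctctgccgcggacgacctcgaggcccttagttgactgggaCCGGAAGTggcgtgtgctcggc
Of 37 members with a promoter in the RefSeq table, 7 held the NRF1 letters (18.9%) and 8 held the GABPA letters (21.6%), against 7.65% and 5.08% of 15842 protein-coding promoters of the same length. The letters AAGATGGC, a YY1 motif, stood in 1 member (2.70%), TOMM40L, and in 1.39% of all. CHCHD2 carries the GABPA letters on the opposite strand, as ACTTCCGG, and TOMM20 carries both motifs. The NRF1 letters stood in CHCHD4, IMMT, TIMM29, TOMM20, TOMM34, TOMM40 and TOMM7, and the GABPA letters also in TIMM10, TIMM10B, TIMM29, TIMMDC1, TOMM6 and TOMM70. TIMM29, like TOMM20, held both. The members called lower with eIF2A siRNA (below) that have such a promoter are CHCHD10, CHCHD2, CHCHD5, MICOS13, TIMM17B and TIMM8A. Of these, 0 held the NRF1 letters and 1, CHCHD2, the GABPA letters, too few genes to set against the shares above. A match is only a description of letters.

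**Figure D1:**
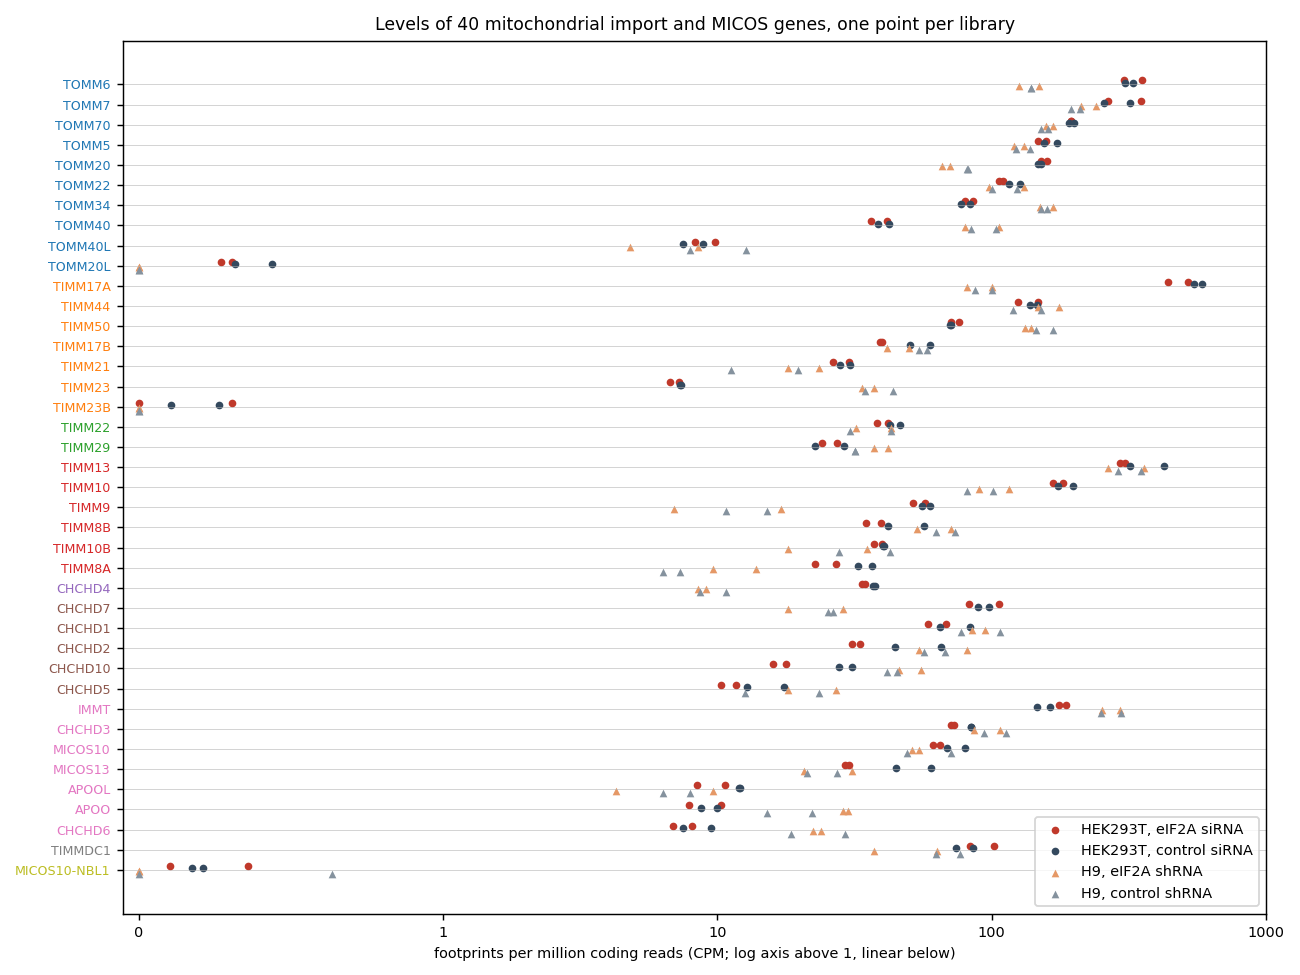
Footprints per 1000000 coding reads (CPM, log axis above 1 and linear below) of the 40 members, 1 point per library, with the IP labels summed in HEK293T; symbol colours mark the complexes and groups follow the labels. TIMM23B, TOMM20L and MICOS10-NBL1 lie below 1 CPM in every library, and positions can be compared along a row but not between rows, since coding lengths differ.

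The first comparison asks which members had more or fewer footprints with eIF2A siRNA than with control siRNA in arsenite-treated HEK293T. Footprints of 7 members fell: the cristae-neck subunit MICOS13, the twin-cysteine proteins CHCHD10, CHCHD2 and CHCHD5, the channel subunit TIMM17B, and the small TIMs TIMM8A and TIMM8B. None rose. The counts were tested with edgeR's quasi-likelihood test over 12331 genes with Benjamini-Hochberg adjustment at 0.05, on TMM-scaled counts. Of 37 tested members 7 were called lower and 0 higher, where 6.13% of all tested genes were called lower, 5.97% higher and 12.1% either way. That is 736 genes higher and 756 lower, and with library sizes alone, without TMM, the split was 705 higher and 274 lower, with 3 members lower and 0 higher. The median log2 fold change was −0.17 over the members and 0.00 over all tested genes, and 33 of 37 members (89.2%) lay below 0, against 49.5% of all. The members' median was −0.09 with library sizes alone (0.09 over all genes), and with 1 sample left out it ran from −0.29 (without the set 2 eIF2A siRNA sample) to −0.10 (without the set 2 control sample), where 28 of 37 lay below 0. TIMM23B, TOMM20L and MICOS10-NBL1 were too low to test. The count of calls rested on single libraries: it was 1 (CHCHD10) without the set 2 control sample, 3 (CHCHD10, CHCHD2 and MICOS13) without the set 1 eIF2A siRNA sample, in which EIF2A was not lower, and 10 without the set 2 eIF2A siRNA sample, and it was 13 with the set as a block and 4 with DESeq2, none of them higher.

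MICOS subunits hold the inner membrane in the sharp bend of the crista neck. MICOS13 (QIL1), which is needed to join the MIC10 side of the complex to the rest, had 29.1 and 30.2 CPM in sets 1 and 2 with eIF2A siRNA, against 44.7 and 60.3 CPM with control siRNA. The groups did not overlap, and the controls lay further apart than the eIF2A siRNA samples. The fitted log2 fold change was −0.91 ± 0.15 (SE) with edgeR's adjusted p = 2.2e-05, and the CPM ratio was 0.653 (0.563 to 0.756) in set 1 and 0.5 (0.436 to 0.573) in set 2. IMMT (mitofilin, MIC60), the large scaffold subunit, lay the other way at 187 and 176 CPM with eIF2A siRNA and 163 and 146 CPM with control siRNA. In unscaled CPM, IMMT was the only tested member whose samples were all higher with eIF2A siRNA, where 35.9% of all tested genes were. Its unscaled ratios were 1.15 (1.07 to 1.22) and 1.21 (1.13 to 1.29). After TMM scaling its log2 ratios were 0.075 in set 1 and 0.21 in set 2. The fit gave 0.14 ± 0.13 (adjusted p = 0.53, edgeR) and did not call it. The other 5 MICOS genes were not called either, at log2 values of −0.41 for APOOL (a cardiolipin-binding subunit), −0.33 for MICOS10 (the neck-bending subunit MIC10), −0.31 for CHCHD3 (MIC19, which ties MICOS to the outer membrane), −0.26 for CHCHD6 (MIC25) and −0.11 for APOO (MIC26). The median over the 7 MICOS genes was −0.31. CHCHD3 had 70.9 and 73.2 CPM with eIF2A siRNA and 84.1 and 83.9 CPM with control siRNA, which do not overlap.

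CHCHD genes encode proteins with paired cysteines that CHCHD4 oxidises. Of the 5 outside MICOS, 3 fell and 2 were not called, with a median log2 fold change of −0.54. CHCHD2, a regulator of respiration that also enters the nucleus, had 30.98 and 33.04 CPM with eIF2A siRNA and 44.6 and 65.5 CPM with control siRNA. CHCHD10, its close paralogue, had 17.7 and 15.98 CPM with eIF2A siRNA and 27.7 and 30.8 CPM with control siRNA. Neither gene's groups overlapped, and for both the 4 libraries of each siRNA lay apart before the IP labels were summed. The fit gave −0.86 ± 0.15 for CHCHD2 (adjusted p = 8.91e-05) and −0.88 ± 0.16 for CHCHD10 (adjusted p = 0.000148, edgeR). Without the set 2 control sample CHCHD2 stood at −0.55 (adjusted p = 0.209, edgeR) and CHCHD10 at −0.79. Ratios were 0.695 (0.601 to 0.803) in set 1 and 0.505 (0.442 to 0.575) in set 2 for CHCHD2, and 0.64 (0.529 to 0.773) and 0.518 (0.428 to 0.626) for CHCHD10. RefSeq names 11 pseudogenes of CHCHD2, and reads with more than 1 alignment were not counted, so its level is a lower estimate in every library. The same limit may hold for other members with named pseudogenes, among them TOMM22 (6), CHCHD4 (5), APOO (5), TOMM20 (4), MICOS10 (4) and CHCHD3 (3).

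CHCHD5 had 11.7 and 10.3 CPM with eIF2A siRNA and 12.8 and 17.5 CPM with control siRNA. Its groups did not overlap as summed, but the set 1 ratio of 0.913 (0.709 to 1.17) includes 1 while the set 2 ratio of 0.591 (0.462 to 0.754) does not. The fitted value was −0.54 ± 0.19 with an adjusted p of 0.0451 (edgeR), the highest among the 7, and without the set 2 control sample it was −0.30 (adjusted p = 0.702, edgeR). CHCHD1, a subunit of the mitochondrial ribosome, had 58.7 and 68.4 CPM with eIF2A siRNA and 64.96 and 83.5 CPM with control siRNA, which overlap, and a fitted value of −0.31 ± 0.14 (adjusted p = 0.147, edgeR). CHCHD7 had 82.3 and 106 CPM with eIF2A siRNA and 89.2 and 98.2 CPM with control siRNA, with a fitted value of −0.07. CHCHD4, the oxidase receptor itself, was not called at 34.4 and 33.6 CPM with eIF2A siRNA and 37.5 and 36.9 CPM with control siRNA, a fitted value of −0.22 ± 0.15 (adjusted p = 0.349, edgeR).

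**Figure D2:**
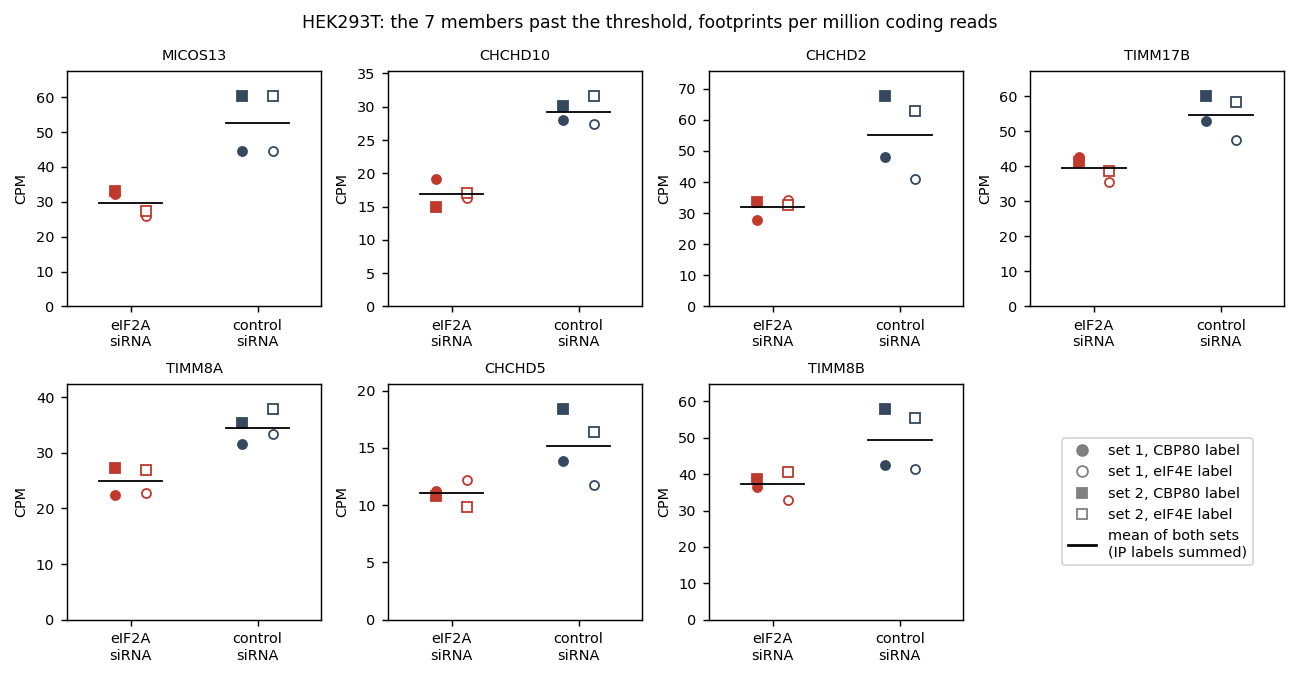
Footprints per 1000000 coding reads (CPM, axes from 0) of the 7 members that passed the threshold in HEK293T, per IP label and set, with a line at the mean of both sets after summing the IP labels; eIF2A siRNA stands left of control siRNA. CBP80 and eIF4E points of the same set lie close together, and the groups are apart in every panel except CHCHD5, where a set 1 eIF2A siRNA point (eIF4E label) lies above a control point.

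The small TIMs form ring-shaped chaperones of alternating subunits. TIMM8A, the gene mutated in deafness-dystonia syndrome and the partner of TIMM13, had 22.6 and 27.1 CPM with eIF2A siRNA and 32.5 and 36.5 CPM with control siRNA. TIMM8B, its paralogue, had 34.7 and 39.6 CPM with eIF2A siRNA and 41.8 and 56.7 CPM with control siRNA. Both fell, with no overlap between groups and with fitted log2 values of −0.55 ± 0.16 (adjusted p = 0.0119) and −0.49 ± 0.15 (adjusted p = 0.022, edgeR). Without the set 2 control sample these were −0.46 and −0.24, and without the set 1 eIF2A siRNA sample −0.39 and −0.35, none of them called. The set 1 and set 2 ratios were 0.696 (0.586 to 0.824) and 0.742 (0.634 to 0.869) for TIMM8A, and 0.83 (0.72 to 0.956) and 0.698 (0.614 to 0.793) for TIMM8B.

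TIMM13 lay just outside the threshold, at −0.40 ± 0.14 with an adjusted p of 0.051 (edgeR), and had 293 and 306 CPM with eIF2A siRNA and 318 and 424 CPM with control siRNA. Its set 1 ratio was 0.921 (0.877 to 0.968) and its set 2 ratio 0.723 (0.69 to 0.757). TIMM10, which pairs with TIMM9 in the other ring, was not called at 168 and 182 CPM with eIF2A siRNA and 175 and 197 CPM with control siRNA. TIMM9, TIMM10 and TIMM10B had fitted values from −0.17 to −0.14. The median over the 6 small TIMs was −0.28.

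TIM23 moves presequence proteins into the matrix. TIMM17B, 1 of the alternative channel subunits, fell to 39.2 and 39.95 CPM with eIF2A siRNA, against 50.3 and 59.4 CPM with control siRNA, without overlap, with a fitted log2 value of −0.55 ± 0.14 (adjusted p = 0.00623, edgeR). Its paralogue TIMM17A, which is known to be degraded and translated less under stress, had 441 and 518 CPM with eIF2A siRNA and 548 and 586 CPM with control siRNA. These did not overlap either, and the fitted value was −0.33 ± 0.14 (adjusted p = 0.118, edgeR), so it was not called. TIMM17B ratios were 0.78 (0.684 to 0.889) and 0.673 (0.593 to 0.763), and TIMM17A ratios 0.804 (0.773 to 0.836) and 0.884 (0.852 to 0.918). TIMM44, which anchors the import motor, had 148 and 125 CPM with eIF2A siRNA and 138 and 146 CPM with control siRNA. These unscaled values overlap, but its TMM-scaled values do not. TIMM44, TIMM23 (the channel partner), TIMM21 and TIMM50 (receptor) had fitted values from −0.16 to −0.04, and the 2 TIM22 genes, TIMM22 and TIMM29, −0.24 and −0.09.

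None of the 9 tested TOM genes was called, and their fitted values ran from −0.25 to 0.07 with a median of −0.05. TOMM6, a small subunit that acts in TOM assembly, had 305 and 353 CPM with eIF2A siRNA and 306 and 328 CPM with control siRNA. TOMM7, another small subunit, had 266 and 349 CPM with eIF2A siRNA and 257 and 319 CPM with control siRNA. Both overlapped between groups. TOMM22, the central receptor, was lowest in fitted value at −0.25 ± 0.14 (adjusted p = 0.218, edgeR), with 106 and 109.7 CPM with eIF2A siRNA and 116 and 127 CPM with control siRNA. TIMMDC1 had 102 and 83.4 CPM with eIF2A siRNA and 85.3 and 73.9 CPM with control siRNA, with a fitted value of 0.12.

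**Figure D3:**
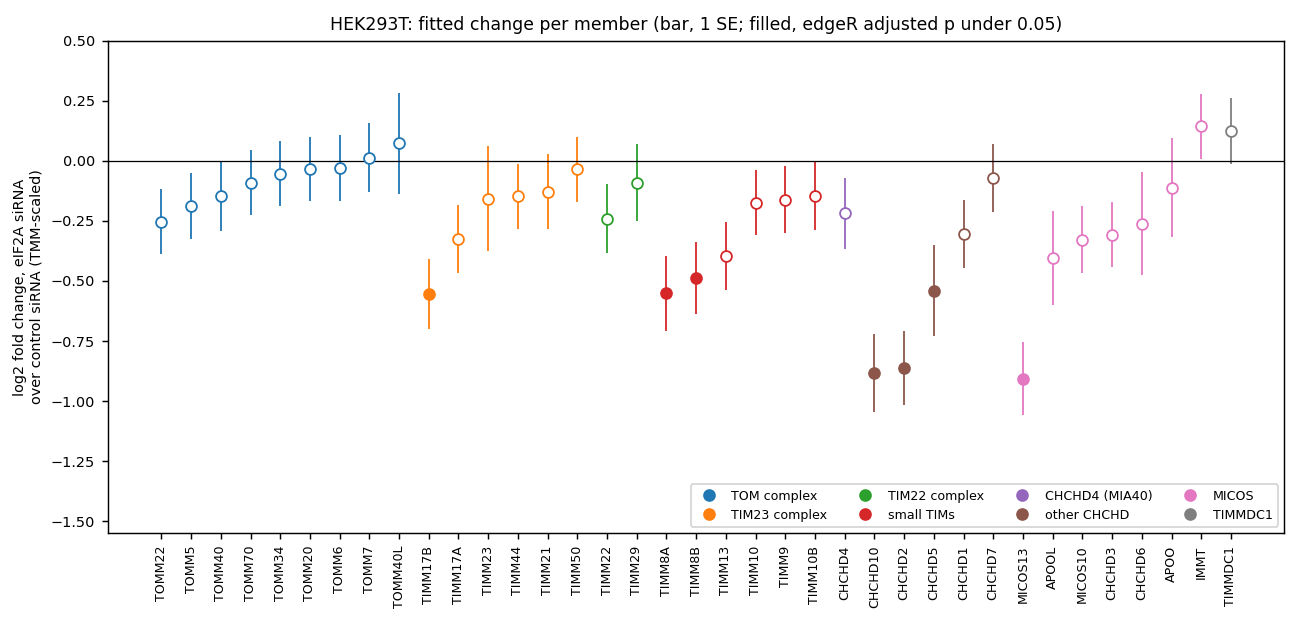
Fitted log2 fold change (vertical axis, TMM-scaled counts, edgeR) of the 37 tested members for eIF2A siRNA over control siRNA in HEK293T, grouped by complex, with bars of 1 SE and filled points for an adjusted p under 0.05. The 9 TOM genes lie between −0.25 and 0.07, while MICOS13, CHCHD10 and CHCHD2 lie between −0.91 and −0.86.

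The sets were then read separately, each with its own control. After TMM scaling 29 of 37 members (78.4%) were lower with eIF2A siRNA in both sets, against 35.7% of all tested genes, and 3 members (8.11%), IMMT, TIMMDC1 and TOMM40L, were higher in both, against 36.6%. The median over members was −0.22 in set 1 and −0.19 in set 2. In unscaled CPM, 17 members (45.9%) were lower with no overlap of groups and 1 (2.70%) was higher, against 20.6% and 35.9% of all tested genes. Summed over all 40 members the footprints were 3439 and 3669 CPM with eIF2A siRNA and 3633 and 4015 CPM with control siRNA, which overlap. Of uniquely placed reads, 51.2 and 42.5% fell outside coding sequences with eIF2A siRNA, against 40.1 and 35.4% with control siRNA, and the part of this difference in the members' values was not tested.

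**Figure D4:**
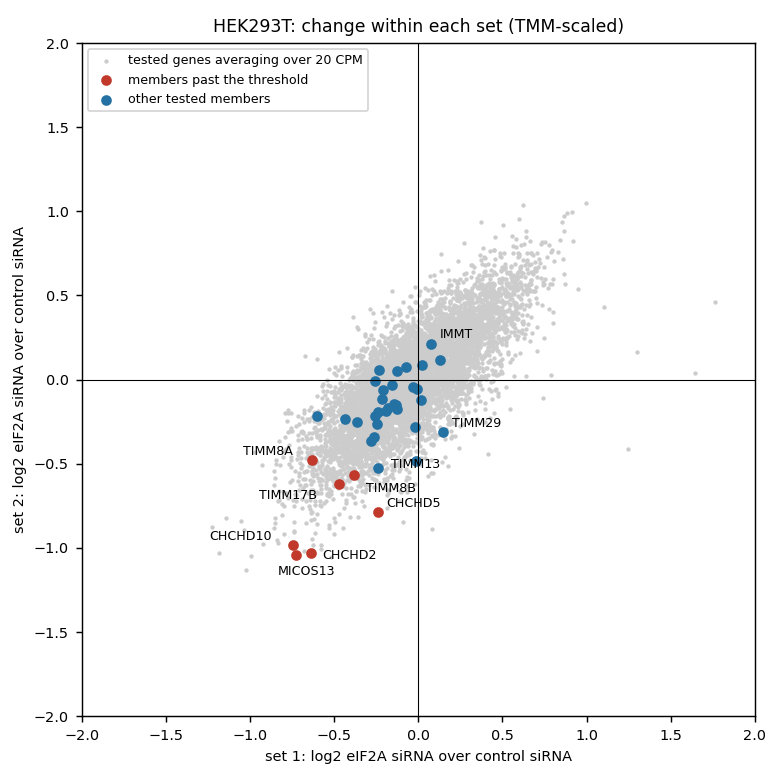
Log2 ratio of eIF2A siRNA over control siRNA in set 1 (horizontal) and set 2 (vertical) on TMM-scaled counts in HEK293T, with the 37 tested members in red (past the threshold) or blue and other tested genes averaging over 20 CPM in grey. MICOS13, CHCHD10 and CHCHD2 lie at the lower left, and 29 of the 37 members lie below 0 in both sets.

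Genes that work beside the members give the setting. Their lists were chosen with earlier results of these data known, so the counts below are a description and no independent support. The 51 genes of 5 lists (49 tested) had 2 called higher and 10 called lower, with a median log2 fold change of −0.19, where 5.97% of all tested genes were called higher and 6.13% lower, with a median of 0.00. Of 6 genes that cut or process presequences, 4 fell: MIPEP by 0.57 and IMMP2L by 0.70 on the log2 scale, and PMPCA and PMPCB, the subunits of the main processing peptidase, by 0.46 and 0.40. PMPCA had 364 and 411 CPM with eIF2A siRNA and 501 and 507 CPM with control siRNA. Of 11 genes listed as intermembrane space oxidation and partners, AIFM1, the binding partner of CHCHD4, fell by 0.47 and the prohibitin PHB1 by 0.40.

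Of 16 other genes listed as twin-cysteine proteins, 4 fell and 1 rose. The 4 were NDUFA8, COA4, NDUFB7 and PET100, at −0.51, −0.46, −0.42 and −0.47. For NDUFB7 the set 1 ratio of 0.942 (0.85 to 1.04) includes 1, while the set 2 ratio of 0.681 (0.618 to 0.75) does not. PET100, a membrane-bound assembly factor of cytochrome oxidase, is not known as a twin-cysteine protein and was left in the list as written. COX17, a copper chaperone, rose to 19.9 and 19.0 CPM with eIF2A siRNA, against 9.23 and 13.4 CPM with control siRNA, a log2 fold change of 0.71 (adjusted p = 0.0062, edgeR). Of 9 tested motor and folding genes, PAM16 alone rose, by 0.85 (adjusted p = 0.0178, edgeR). It had 9.07 and 5.30 CPM with eIF2A siRNA and 3.25 and 4.21 CPM with control siRNA. Its ratio was 2.79 (1.88 to 4.21) in set 1, where EIF2A was not lower. In set 2 it was 1.26 (0.828 to 1.93), which includes 1. Reads of the read-through CORO7-PAM16 could share its sequence. None of 7 outer membrane assembly genes was called. Their smallest adjusted p-values were 0.104 for SAMM50 (−0.32) and 0.108 for MTCH1 (0.34), edgeR.

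The next comparison sets the IP labels against each other. Whether the CBP80 and eIF4E libraries of the same siRNA and set are repeat runs of the same material cannot be told from these files, and if they are, a lack of calls says nothing of the IP. With CBP80 over eIF4E IP, edgeR called 0 of 11778 genes (0.0%) and 0 of 37 members, with 98 genes and no member at an unadjusted p under 0.05, and DESeq2 called 1 gene. With siRNA and set as a block, edgeR called 5 genes and 0 members. Members ran from −0.11 to 0.17 in log2 fold change. Within each siRNA and set, the members' counts under the 2 IP labels gave a chi-square per degree of freedom of 0.701 to 1.09, with p from 0.323 to 0.910. MICOS13, for example, had 32.2, 33.2, 44.7 and 60.4 CPM with the CBP80 label and 25.9, 27.4, 44.6 and 60.3 CPM with the eIF4E label, in the order eIF2A siRNA set 1 and 2, then control siRNA set 1 and 2. The test for a siRNA difference that depends on the IP label called 0 genes and 0 members (0.0% of 11778, edgeR, with 97 genes at an unadjusted p under 0.05, and 0 by DESeq2).

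In H9, with eIF2A shRNA over control shRNA, edgeR called 0 of 9751 genes (0.0%) and 0 of 37 members, and DESeq2 called 0. At an unadjusted p under 0.05 (edgeR) there were 91 genes and no member. That fit left out the set, by which the H9 libraries differed more than by label, so its spread includes the difference between sets. With the set as a block, edgeR again called 0 genes and 0 members, with 509 genes and 4 members at an unadjusted p under 0.05. If the shRNA labels are crossed with the sets, this contrast does not set knockdown against control, so the lack of calls says nothing firm of eIF2A in H9. The median over members was −0.02, against 0.00 over all. CHCHD2 had 54.3 and 81.02 CPM in sets 1 and 2 with eIF2A shRNA and 56.4 and 67.5 CPM with control shRNA. CHCHD10 had 55.4 and 45.8 CPM with eIF2A shRNA and 45.02 and 41.7 CPM with control shRNA. MICOS13 had 20.8 and 30.9 CPM with eIF2A shRNA and 27.3 and 21.2 CPM with control shRNA. CHCHD2 and MICOS13 overlapped between the labels, CHCHD10 did not, and every counting interval of the 3 genes' ratios includes 1. The ratios were 0.962 (0.717 to 1.29) in set 1 and 1.20 (0.88 to 1.63) in set 2 for CHCHD2, 1.23 (0.901 to 1.69) and 1.10 (0.728 to 1.65) for CHCHD10, and 0.761 (0.481 to 1.20) and 1.46 (0.852 to 2.49) for MICOS13. TIMM8A stood on few footprints, with 13.8 and 9.59 CPM with eIF2A shRNA and 6.34 and 7.28 CPM with control shRNA, higher without overlap (ratios 2.18 (1.02 to 5.07) and 1.32 (0.483 to 3.50)). TIMM17B was lower without overlap, with 50.03 and 41.6 CPM with eIF2A shRNA and 54.5 and 58.2 CPM with control shRNA (ratios 0.918 (0.678 to 1.24) and 0.714 (0.477 to 1.05)). Neither was called. TIMM8B had 71.3 and 53.3 CPM with eIF2A shRNA and 73.6 and 62.9 CPM with control shRNA, and CHCHD5 had 27.1 and 18.1 CPM with eIF2A shRNA and 23.5 and 12.6 CPM with control shRNA, both with overlap. Without overlap, 3 members (8.11%) were lower and 5 (13.5%) higher, near the 11.7% and 12% of all tested genes.

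Whether the siRNA and shRNA differences differ between the cell lines was tested in 1 fit of all samples. It called 0 of 12911 genes (0.0%) and 0 members (edgeR, 1031 genes and 5 members at an unadjusted p under 0.05). The 5 were CHCHD10, with a difference of −1.12 ± 0.27 in log2 (SE, adjusted p = 0.252), CHCHD2 (−0.92), TIMM8A (−1.40), MICOS13 (−0.91) and CHCHD5 (−0.92). The members called in HEK293T are therefore not shown to differ from H9, where fewer reads, wider intervals and the doubt about the shRNA labels limit the comparison.

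H9 control shRNA was also set against HEK293T control siRNA to show the members' levels by cell line. Arsenite, IP, siRNA or shRNA and depth all go with the cell line and cannot be told apart from it. edgeR called 8790 of 12307 genes (71.4%), 34.4% higher and 37.0% lower, so a call here is common. Of 37 tested members, 7 were higher in H9 and 17 lower.

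Of 6 tested TIM23 genes, 2 were higher in H9 and 2 lower. TIMM17A was lower at 86.9 and 99.9 CPM in H9, against 548 and 586 CPM in HEK293T (log2 fold change −2.76 ± 0.16, SE), while TIMM17B was not called at 54.5 and 58.2 CPM in H9 and 50.3 and 59.4 CPM in HEK293T. TIMM23 was higher at 43.7 and 34.4 CPM in H9 and 7.30 and 7.37 CPM in HEK293T (2.26 ± 0.24). It has the near-identical copy TIMM23B, and reads that fit both were not counted. TIMM50 was higher at 145 and 167 CPM in H9, against 71.03 and 70.2 CPM in HEK293T (0.99 ± 0.16), and TIMM21 lower at 19.7 and 11.2 CPM in H9 and 28.04 and 30.3 CPM in HEK293T (−1.07 ± 0.25). TIMM22 of the carrier translocase was called lower at the threshold (−0.43). Its unscaled CPM values, 43.1 and 30.4 in H9 and 46.3 and 42.6 in HEK293T, overlap, but its TMM-scaled values do not. The call was lost in 8 of 10 alternatives, with values from −0.66 to −0.20.

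Of the 6 small TIMs 4 were called lower in H9, and CHCHD4 was lower too. TIMM8A had 6.34 and 7.28 CPM in H9 and 32.5 and 36.5 CPM in HEK293T (−2.50 ± 0.30), and TIMM9 had 10.8 and 15.2 CPM in H9 and 55.6 and 59.6 CPM in HEK293T (−2.31 ± 0.24). CHCHD4 had 10.8 and 8.60 CPM in H9 and 37.5 and 36.9 CPM in HEK293T (−2.10 ± 0.27). None of these groups overlapped, but the share of all tested genes without overlap between the lines was not counted. TIMM10 was lower at 101 and 81.4 CPM in H9, against 175 and 197 CPM in HEK293T (−1.18 ± 0.16), and CHCHD7 at 25.4 and 26.5 CPM, against 89.2 and 98.2 CPM (−2.01 ± 0.20). TIMM13 was called lower by 0.37 on the log2 scale. Its unscaled CPM of 351 and 289.8 in H9 and 318 and 424 in HEK293T overlap, but its TMM-scaled values do not. The call was lost in 6 of 10 alternatives, with values from −0.59 to −0.14. CHCHD2, CHCHD5 and CHCHD10, which fell with eIF2A siRNA in HEK293T, were not called between the lines in this fit, but CHCHD10 was called under RLE scaling, library sizes alone, a mean count of at least 50 and all samples of both lines, and CHCHD5 under the last of these.

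Of 9 tested TOM genes, 2 were higher in H9 and 5 lower. The channel TOMM40 was higher at 104 and 84.04 CPM in H9, against 42.3 and 38.6 CPM in HEK293T (1.06 ± 0.17), as was the cytosolic co-chaperone TOMM34 at 159 and 150.9 CPM in H9 and 77.4 and 83.6 CPM in HEK293T (0.78 ± 0.15). The receptors TOMM20 and TOMM70 were lower, TOMM20 at 81.8 and 81.4 CPM in H9 and 147 and 152 CPM in HEK293T (−1.03 ± 0.16), and TOMM70 at 160.4 and 150.9 CPM in H9 and 199 and 192 CPM in HEK293T (−0.49 ± 0.15). The small subunits were lower too. TOMM6 had 139 and 139.6 CPM in H9 and 306 and 328 CPM in HEK293T (−1.34 ± 0.15), TOMM7 195 and 209 CPM in H9 and 257 and 319 CPM in HEK293T (−0.67 ± 0.15), and TOMM5 122 and 138 CPM in H9 and 155 and 173 CPM in HEK293T (−0.49 ± 0.15).

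In MICOS, 3 genes were higher in H9 and 3 lower. CHCHD6 was higher at 29.2 and 18.5 CPM in H9 and 7.47 and 9.47 CPM in HEK293T (1.35 ± 0.26), APOO at 22.2 and 15.2 CPM in H9 and 8.70 and 9.999 CPM in HEK293T (0.85 ± 0.27), and IMMT at 295 and 251 CPM in H9 and 163 and 146 CPM in HEK293T (0.66 ± 0.14). These 3 did not overlap between the lines, where the share of all tested genes without overlap was not counted. MICOS13 was lower at 27.3 and 21.2 CPM in H9, against 44.7 and 60.3 CPM in HEK293T (−1.27 ± 0.22), and APOOL at 6.34 and 7.94 CPM in H9 and 12.04 and 11.999 CPM in HEK293T (−0.91 ± 0.34). MICOS10 was called lower by 0.47 on the log2 scale. Its unscaled CPM of 71.01 and 48.97 in H9 and 68.7 and 80.2 in HEK293T overlap, but its TMM-scaled values do not. The call was lost in 5 of 10 alternatives, with values from −0.72 to −0.22. All adjusted p-values for these calls are edgeR's, from 3.56e-26 for TIMM17A to 0.0498 for TIMM22.

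**Figure D5:**
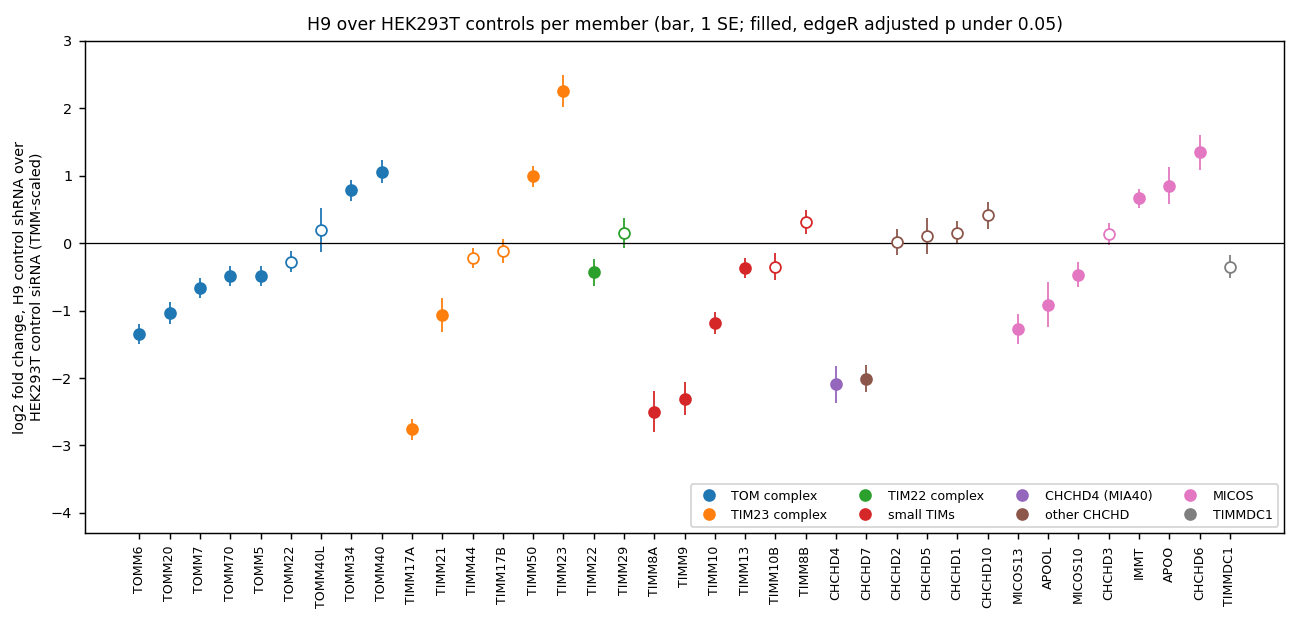
Fitted log2 fold change (vertical axis, TMM-scaled counts, edgeR) of the 37 tested members for H9 control shRNA over HEK293T control siRNA, grouped by complex, with bars of 1 SE and filled points for an adjusted p under 0.05. TIMM23 is highest at 2.26 and TIMM17A lowest at −2.76, and 24 members are filled.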

How the data were processed

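The members and gene lists were chosen with earlier results of these data known. The genome build was hg19, with adapter trimming tool cutadapt and aligner STAR 2.5.2b named, per the submitters' processing notes. How reads were counted, with which annotation and strand setting, is not given in the sources used here, so a gene and an overlapping antisense gene cannot be told apart. The deposited values are raw counts of reads per coding sequence, 1 RefSeq accession per row. Rows naming no gene (87.5 to 89.5% of HEK293T and 96.2 to 96.5% of H9 totals, mostly reads with more than 1 alignment) stayed out of library sizes and tests. NCBI RefSeq's GRCh38.p14 table named 18884 of 19305 accessions. Promoters come from the same source.

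Groups and sets came from the sample titles. Deviations of same-set samples correlated at r = 0.442 in HEK293T and 0.451 in H9. With only 2 sets and no label saying what a set is, the sets were nevertheless not taken to pair the groups, and the block fit is an alternative. The IP libraries of the same siRNA and set, which differed by about sampling noise, served as pairs in the block fit of the IP comparison (r = 0.672 and 0.578). The tests used edgeR 4.0.16 under R 4.3.3 (filterByExpr, TMM, estimateDisp, robust glmQLFit, glmQLFTest) and Benjamini-Hochberg adjustment over all tested genes at 0.05. The siRNA fit had 2 residual degrees of freedom and a median prior of 86.4, and the H9 fit 2 and 7.12. Standard errors are the absolute log2 fold change divided by √F. Single-sample CPM use total coding reads without TMM, and ratio intervals are 95% binomial intervals that cover counting error only. A count of 0 allows up to 3 counts, or 0.264 to 0.316 CPM in summed HEK293T samples and 1.60 to 3.20 CPM in H9. The fits were also run on simulated counts with the same spread for every gene and no difference between sets. That run therefore does not measure how firm the calls are here.

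All members may be named, with values per library for those past a threshold. Of the other lists, at most 4 genes past the threshold are named, by smallest p, or 2 as values where none passed. Alternatives were RLE scaling, library sizes alone, DESeq2 1.42.0, keeping all genes with a count, keeping genes averaging 50 counts or more, leaving out each library, replicate blocks, separate IP labels and, for H9 over HEK293T, all samples of both lines. The fit across both cell lines and edgeR's legacy option were chosen after seeing the data. Levels per coding length and the split by protein length were not run, and the study's mRNA-seq was not used here.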

Additional observations from a re-analysis of the deposited data

How the results depend on the processing

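Against 7 members called lower with eIF2A siRNA in HEK293T, library sizes alone gave 3, no count filter 4, DESeq2 4, and the CBP80 and eIF4E libraries of a fit of 8 gave 3 and 3. Leaving out 1 sample gave 1 to 10, lowest without the set 2 control. RLE scaling, a mean count of at least 50 and the legacy option gave 8 each, adding TIMM13. No alternative called a member higher. Over all genes the count was 1492 of 12331, against 979 of 12331 with library sizes alone and 633 of 16622 without a filter. With DESeq2, which gave an adjusted p for 7310 genes and 31 members, it was 735 (280 higher and 455 lower). With the separate IP labels it was 501 and 397 of 11778. With the set as a replicate block it was 3023 genes and 13 members, while the block gave 5 genes and 0 members for the IP labels, 0 and 0 for the interaction and 0 and 0 in H9, so it changed no other call of a member. CHCHD10 was called in 13 of 13 alternatives, MICOS13 in 12, CHCHD2 in 11, TIMM17B in 9, TIMM8A and TIMM8B in 6 and CHCHD5 in 5 of 12. For H9 over HEK293T, 20 to 28 members were called, against 24. The calls of TIMM22, TIMM13 and MICOS10 were lost in 8, 6 and 5 of 10 alternatives and those of APOO, APOOL and TOMM5 in 2 each. None of these genes reversed direction. The cause of the changes was not tested. The values by coding length could not be run for want of protein lengths. Depth limits H9, where 3 counts stand for 1.60 to 3.20 CPM.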

Other observations

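The lists of genes that work beside the members, chosen with earlier results of these data known, differed between H9 control shRNA and HEK293T control siRNA. Of 16 genes listed as twin-cysteine proteins outside the member set, 13 were called lower and 1 higher, with a median log2 fold change of −1.62, and of 6 presequence-processing genes 5 were lower and 1 higher, with a median of −1.12 (edgeR, 37.0% of all tested genes lower and 34.4% higher). Of 11 genes listed as intermembrane space oxidation and partners, 4 were higher and 5 lower. The matrix motor and folding chaperones had 3 higher and 2 lower of 9, and outer membrane assembly 2 higher and 2 lower of 7. PMPCA, a subunit of the matrix processing peptidase, had 143 and 142 CPM in H9, against 501 and 507 CPM in HEK293T, a log2 fold change of −1.98 ± 0.15 (SE). MIPEP, the intermediate peptidase that acts after it, was the 1 higher, at 62.8 and 47.0 CPM in H9 and 27.9 and 23.3 CPM in HEK293T (0.94 ± 0.20). AIFM1 and PHB1 were lower, at −1.39 and −2.20 on the log2 scale. Cell line, arsenite, IP and depth cannot be told apart here.

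In H9 more members separated by set than by shRNA label. In CPM, 16 of 37 tested members (43.2%) were lower and 7 (18.9%) higher in set 2 than in set 1 with no overlap, against 29.5% and 24.2% of all tested genes. Between the shRNA labels these counts were 3 and 5. IMMT, for example, had 252 and 251 CPM in set 2 and 294 and 295 CPM in set 1, with eIF2A shRNA and control shRNA, in that order. TOMM20, APOO and TIMM29 were among those apart by label. TOMM20 had 70.3 and 66.1 CPM with eIF2A shRNA and 81.8 and 81.4 CPM with control shRNA. APOO had 28.7 and 29.9 CPM with eIF2A shRNA and 22.2 and 15.2 CPM with control shRNA. TIMM29 had 42.1 and 37.3 CPM with eIF2A shRNA and 31.7 and 31.8 CPM with control shRNA. The counting intervals of the ratios include 1 in both sets for TOMM20 and TIMM29. For APOO the set 1 ratio of 1.30 (0.831 to 2.04) includes 1 and the set 2 ratio of 1.96 (1.09 to 3.56) does not.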
